A study of Mus musculus with 13 samples.

Results

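The genes described here are a set of 44 symbols of the lysosome, of autophagy and of mitophagy, followed in mouse brown adipose tissue across genotype and temperature. Members were taken by symbol from a deposited table of raw counts for 55357 genes, and 43 of the 44 were found in it. Nbr1 had no row under its symbol, but a row carrying only its Ensembl identifier was matched to it through a reference gene table, and its values are given apart from the counts. Of the 43, 41 passed the filter on low counts and were tested among 11073 genes. Atp6v0c had 0 to 7 counts per library and Atg9a 0 to 2, and neither was tested.

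The 13 libraries came from mice labelled Stim1/2_Adp-Cre (KO) or Stim1/2_fl/fl (control, called wild type in the design text). In KO mice the floxed Stim1 and Stim2 alleles, which encode calcium sensors of the endoplasmic reticulum, were deleted by Cre under the adiponectin promoter, so the deletion is aimed at adipocytes and the other cells of the tissue keep both genes. Mice were taken after 6 h at 4 °C (KO cold, 4 libraries; control cold, 4) or from room temperature (KO RT, 3; control RT, 2). The labels give no age or sex, do not say that each library is a separate animal, and give 1 batch name to all, so each p-value reflects nothing beyond the spread among the libraries, which may be technical. In bulk tissue, fewer cells of a type and less RNA per cell cannot be told apart.

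Autophagy encloses cytoplasm, proteins or organelles in a double membrane and delivers them to the lysosome, where an acid lumen, kept acid by the V-ATPase proton pump, lets hydrolases degrade them. The transcription factors TFEB, TFE3 and MITF drive many of these genes through a DNA element called CLEAR, and the kinase complex mTORC1 on the lysosome holds these factors out of the nucleus when nutrients are plentiful. In mitophagy the cargo is mitochondria. Brown adipocytes are rich in mitochondria, and mitophagy is known to take part in their loss when brown or beige fat is no longer stimulated. Calcium released from the lysosome through the channel TRPML1 activates calcineurin, which dephosphorylates TFEB.

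Levels are CPM, tag counts scaled to a common library size. Each mRNA gives a tag at its 3′ end, so CPM were not divided by transcript length, and levels are compared within a gene only. A gene is called when q, edgeR's quasi-likelihood p adjusted over the 11073 genes, is under 0.05, and "rose" and "fell" are kept for called genes. Fold changes are log2 with their standard error.

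Libraries held 1570684 to 2016178 counts. Stim1 was measured at 78.8 to 108 CPM in KO cold against 114 to 134 CPM in control cold, and Stim2 at 13.5 to 29.7 CPM against 31.1 to 54.5 CPM. At RT Stim1 lay at 62.0 to 86.1 CPM in KO, against 126 to 149.9 CPM in control, and Stim2 at 21.0 to 25.2 CPM and 29.0 to 40.4 CPM. Both genes were therefore lower in every KO library than in every control library of the same temperature. In cold, 6.53% of all tested genes showed this, and for RT that share was not computed. EdgeR called Stim2 lower in cold (-0.88 ± 0.24, q = 0.0382). Stim1 did not pass in cold (-0.45 ± 0.13, q = 0.057) or at RT (-0.90 ± 0.17, q = 0.349), nor did Stim2 at RT (-0.59 ± 0.30). The 3′ tag need not lie in the deleted part. Adipocyte markers summed to 14210 to 15790 CPM in KO cold, 14080 to 15300 CPM in control cold, 14520 to 15940 CPM in KO RT and 13440 to 15330 CPM in control RT. Of these 8 markers, 2 were called higher in KO cold than in control cold, Lipe (0.60 ± 0.11, q = 0.00472) and Cfd (0.55 ± 0.13, q = 0.0186), and 6 had a positive value. The 8 brown adipocyte markers summed to 12890 to 13590 CPM in KO cold, against 13850 to 17130 CPM in control cold, without overlap, and to 7085 to 8778 CPM in KO RT, against 8101 to 8885 CPM in control RT. EdgeR called 0 of the 8 between KO and control in cold, with 2 at an unadjusted p under 0.05, and DESeq2 and limma-voom called Ucp1 (-0.40 ± 0.12 in edgeR, q = 0.0577). In that comparison 2224 of all 11073 genes had an unadjusted p under 0.05 in edgeR. Of the 8, 4 had a positive and 4 a negative log2 fold change there, with a median of 0.033. Ucp1 was the largest part of the sum, with a mean of 6641 CPM in KO cold against 8741 CPM in control cold. The 16 macrophage and monocyte markers, from cells rich in lysosomes, summed to 131 to 175 CPM in KO cold, against 132 to 353 CPM in control cold, and to 145 to 206 CPM in KO RT, against 193 to 242 CPM in control RT. Between 0 and 2 of the 16 were at 0 in a library, 13 were tested, and all 13 had a negative log2 fold change of KO over control in cold, with a median of -0.706 and 0 calls. The 7 fibroblast markers, also all negative there with 0 calls, summed to 554.5 to 647 CPM in KO cold, against 507 to 1477 CPM in control cold, the highest again in control cold 2. The 8 skeletal muscle markers were uneven, at most 227 CPM in cold libraries but 1795 and 16.3 CPM in the control RT libraries and 58.8 to 1077 CPM in KO RT. The part of these cell types in the results was not tested.

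KO and control libraries from cold were compared to ask how loss of the calcium sensors in adipocytes changes the tissue while it makes heat. Of the 41 tested members, 5 fell, 0 rose and 36 did not pass. Over all tested genes 3.49% fell and 2.44% rose in this comparison. The 5 were Rnf152, Atp6v1h, Lamp2, Atg12 and Atp6v1b2. The median log2 fold change was -0.078 over the members and -0.005 over all genes. In edgeR, 11 of the 41 members and 2224 of all 11073 genes had an unadjusted p under 0.05. In 7 members every KO cold library lay below every control cold library, and in 0 above, where the share over all genes was 6.53% below and 6.28% above. The 7 were the 5 called genes with Lamp1 and Gla. The members' summed level was 8575 to 9257 CPM in KO cold, against 9572 to 10220 CPM in control cold, and it was 7112 to 7313 CPM in KO RT and 7416 to 7624 CPM in control RT. Abundant genes weigh most in these sums. Of the 41 members, 18 had a positive and 23 a negative log2 fold change of KO over control in cold. Members were chosen with earlier results of these data known, so their counts beside the shares over all genes are a description and no test.

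Rnf152 (ENSMUSG00000047496.7, chromosome 1) had the smallest p of the 41 members in this comparison. It encodes a ubiquitin ligase anchored in the lysosomal membrane that restrains mTORC1 by acting on the GTPase RagA. Its level was 130.4, 135, 149 and 179 CPM in KO cold libraries 1 to 4, against 294, 232, 387 and 325 CPM in control cold libraries 1 to 4. RT levels were 256, 267 and 249 CPM in KO, against 435 and 437 CPM in control. The groups did not overlap at either temperature, and KO cold libraries were the lowest of all 13. In cold the fall was -1.06 ± 0.14 (q = 0.000292). At RT the log2 fold change was -0.76 ± 0.18, which did not pass (q = 0.633, and at least 0.321 across leave-outs). When no filter on low counts was applied, q was 0.00419. That setting also gave a far smaller q elsewhere, as for Ddit4 in KO cold (6.13e-15, against 0.0696 with the filter). Rnf152 was also the one member that edgeR called lower in cold than at RT in both genotypes, with -0.80 ± 0.15 in KO (q = 0.00159) and -0.49 ± 0.16 in control (q = 0.0371). The control value lost its call without control cold 1 or 2 or either control RT library (q up to 0.152 across leave-outs) and when only the 2 control groups were fitted. The difference between both cold responses was -0.30 ± 0.23 (q = 0.794).

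**Figure D1:**
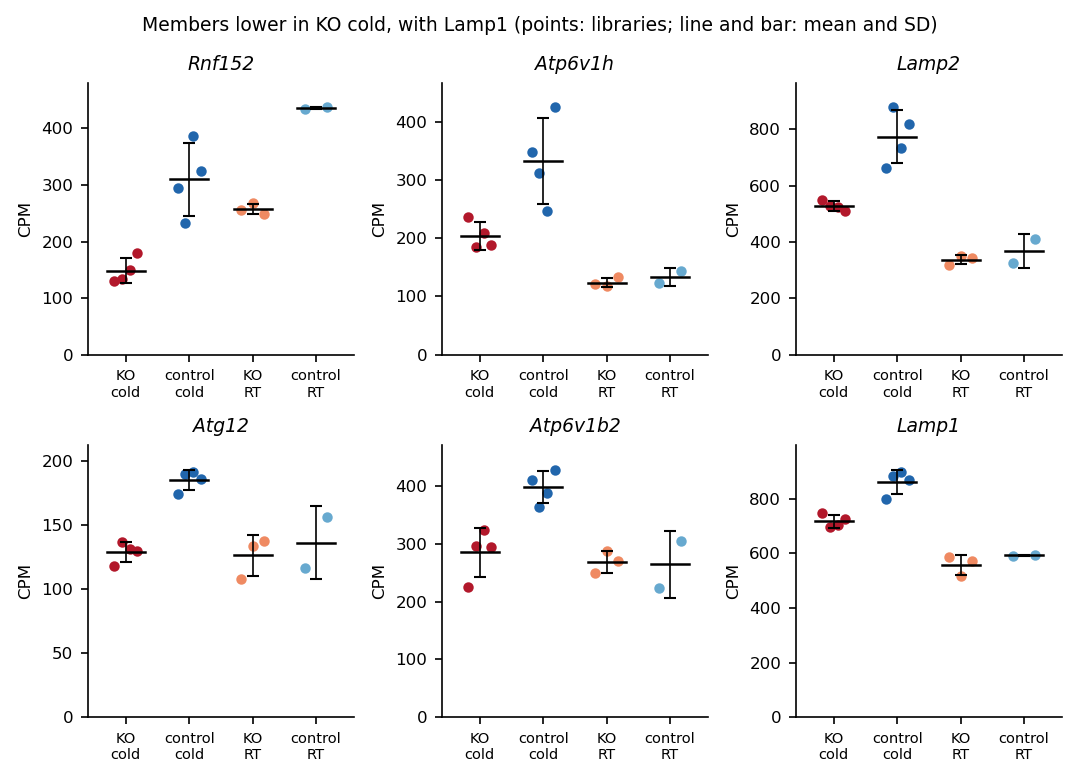
CPM (linear axis from 0) of the 5 members called lower in KO cold, with Lamp1, in the 4 groups; each point is 1 library, lines are means and bars the SD (n = 4, 4, 3 and 2 from left to right). KO cold points lie below all control cold points in each panel, and Rnf152 is lower in KO also at RT.

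Lamp2 (ENSMUSG00000016534.16, chromosome X) encodes a heavily glycosylated protein of the lysosomal membrane, needed for fusion of autophagosomes with lysosomes and, in one of its splice forms, for chaperone-mediated autophagy. The forms differ in their last exon, and the gene count adds them together. Lamp2 was at 549, 528, 525 and 508 CPM in KO cold, against 664, 878, 734 and 818 CPM in control cold. RT levels were 319.6, 349 and 343 CPM in KO, against 325 and 410.4 CPM in control. Cold libraries of both genotypes thus lay above all RT libraries, with KO cold in between. The fall in KO cold was -0.55 ± 0.10 (q = 0.00534), and at RT the log2 fold change was -0.12 ± 0.14 (q = 1). Lamp1 (ENSMUSG00000031447.8, chromosome 8), its abundant relative in the same membrane, was at 695 to 747 CPM in KO cold, against 798 to 898 CPM in control cold. These ranges did not overlap, but its log2 fold change of -0.26 ± 0.08 did not pass (q = 0.0762), while DESeq2 called it. Mcoln1, which encodes the lysosomal calcium channel TRPML1, was sparse, with 9 to 26 counts per library. It was at 7.96 to 14.7 CPM in KO cold, against 6.80 to 8.67 CPM in control cold (0.50 ± 0.28, q = 0.347).

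The V-ATPase has a cytosolic V1 part that splits ATP and a membrane V0 part that carries protons. Of the 4 tested V-ATPase members 2 fell in KO cold, both of V1. Atp6v1h (ENSMUSG00000033793.13, chromosome 1), subunit H, needed for the activity of the assembled pump, was at 237, 184, 209 and 188 CPM in KO cold, against 347, 311, 247 and 425 CPM in control cold (-0.70 ± 0.14, q = 0.00831). RT levels were 121, 118 and 133 CPM in KO, against 122 and 144 CPM in control. The KO cold libraries were above the RT libraries and below the control cold ones. Atp6v1b2 (ENSMUSG00000006273.15, chromosome 8), a B subunit of the ATP-splitting ring, was at 225, 295, 324 and 295 CPM in KO cold, against 409.5, 363, 388 and 428 CPM in control cold (-0.48 ± 0.12, q = 0.0310). RT levels were 249.7, 288 and 269 CPM in KO, against 224 and 305 CPM in control, so that KO cold and RT libraries overlapped. Its call in cold was lost without KO cold 1, 2 or 4 or control cold 1, 3 or 4 (q up to 0.0981). Atp6v1a, the catalytic A subunit, was at 374 to 441 CPM in KO cold, against 412 to 533 CPM in control cold (-0.25 ± 0.10, q = 0.173). Atp6v0a1, of the membrane part, was at 33.3 to 41.1 CPM in KO cold, against 32.5 to 36.5 CPM in control cold (0.13 ± 0.14, q = 0.655).

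Atg12 (ENSMUSG00000032905.6, chromosome 18) encodes a ubiquitin-like protein that is joined to ATG5 to make the enzyme that lipidates LC3. It was at 118, 137, 131 and 129.8 CPM in KO cold, against 174, 190.3, 191 and 186 CPM in control cold (-0.52 ± 0.12, q = 0.0145). RT levels were 108, 134 and 138 CPM in KO, against 116 and 157 CPM in control. The KO cold libraries lay within the range of the RT libraries, and without KO cold 1 the q in cold was 0.0506. Its partner Atg5 was at 28.1 to 35.0 CPM in KO cold, against 25.4 to 45.1 CPM in control cold (-0.16 ± 0.20, q = 0.713). Atg7, the activating enzyme of the same pathway, was at 0.20 ± 0.25 (q = 0.706) and Atg16l1, which places the complex on membranes, at -0.08 ± 0.16 (q = 0.835). Leaving out each of the 13 libraries in turn kept the calls of Rnf152, Lamp2 and Atp6v1h in cold, with q of at most 0.00225, 0.0215 and 0.0342. That includes the omission of control cold 2, the library with the highest macrophage and fibroblast marker sums. Control cold 1, 3 and 4 had macrophage marker sums of 199.9, 131.9 and 223.8 CPM, against 130.9 to 174.8 CPM in KO cold. The part of these cells in the calls was not tested.

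EdgeR called 0 of the 11 lysosomal enzymes and cofactors in KO cold, with 2 at an unadjusted p under 0.05, limma-voom called 0 and DESeq2 called 1, Lipa. Over all genes, 2224 of 11073 had an unadjusted p under 0.05 in edgeR. The median log2 fold change of the 11 was 0.23. The largest positive value was that of Lipa, the acid lipase that frees fatty acids and cholesterol in the lysosome, at 117, 122, 138 and 94.2 CPM in KO cold, against 78.9, 99.5, 83.0 and 61.4 CPM in control cold. One KO cold library overlapped with one control cold library, and the log2 fold change of 0.54 ± 0.16 did not pass (q = 0.0588). Neu1, a sialidase, was at 68.5 to 75.4 CPM in KO cold, against 40.2 to 70.8 CPM in control cold (0.38 ± 0.15, q = 0.147). Gla, alpha-galactosidase A, was sparse, at 5.64 to 7.31 CPM in KO cold, against 8.05 to 16.9 CPM in control cold (-0.77 ± 0.38, q = 0.264). The proteases Ctsd, Ctsl and Ctsb were at -0.13 ± 0.10 (q = 0.505), 0.00 ± 0.11 (q = 0.998) and -0.28 ± 0.15 (q = 0.321). Psap, the precursor of the saposins that help enzymes reach lipids, was at 897 to 951 CPM in KO cold, against 824 to 927 CPM in control cold (0.10 ± 0.08, q = 0.524). Ctsz, Gaa, Hexa and Ctsa had log2 fold changes between 0.23 and 0.34, none of which passed.

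The 3 transcription factors did not pass in KO cold with edgeR, DESeq2 or limma-voom. In edgeR 0 had an unadjusted p under 0.05, where 2224 of all 11073 genes did. Tfeb was at 7.96, 16.7, 11.8 and 11.8 CPM in KO cold, against 18.4, 14.2, 9.29 and 11.3 CPM in control cold (-0.14 ± 0.26, q = 0.824). Tfe3 was at 22.0 to 27.6 CPM in KO cold, against 25.9 to 29.6 CPM in control cold (-0.14 ± 0.17, q = 0.694), and Mitf at 7.96 to 13.5 CPM and 7.43 to 9.27 CPM (0.19 ± 0.25, q = 0.722). The groups overlapped for all 3 genes, and Tfeb and Mitf rested on 12 to 32 and 12 to 26 counts per library.

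The ATG8 family, small proteins that are joined to a lipid of the growing autophagosome and bind cargo receptors, had 5 tested members and 0 calls in KO cold with edgeR, DESeq2 or limma-voom (1, Map1lc3a, at an unadjusted p under 0.05), and had log2 fold changes between -0.22 (Gabarapl1) and 0.26 (Map1lc3a). Of all 11073 genes, 2224 had an unadjusted p under 0.05 in this comparison in edgeR. Sqstm1, which encodes the cargo receptor p62, was at 350.1, 359.5, 319.5 and 201 CPM in KO cold, against 378, 245, 232 and 642 CPM in control cold. Its spread in cold was wide, the groups overlapped, and its log2 fold change was -0.28 ± 0.26 (q = 0.591). Optn, a receptor of damaged mitochondria, was at 0.17 ± 0.12 (q = 0.461). Of the initiation genes, Ulk1, the starting kinase, was at 72.2 to 111 CPM in KO cold, against 57.5 to 79.9 CPM in control cold (0.41 ± 0.15, q = 0.119), while Becn1, Wipi1 and Wipi2 were at 0.09, -0.15 and -0.20. The 4 mitophagy genes lay between -0.10 and 0.11, with 0 calls by edgeR, DESeq2 or limma-voom and 0 at an unadjusted p under 0.05. Bnip3, a receptor in the outer mitochondrial membrane, was at 459.6 to 831 CPM in KO cold, against 552 to 696 CPM in control cold (0.08 ± 0.16, q = 0.830). Pink1, the kinase that marks damaged mitochondria, was at 152 to 169 CPM in KO cold, against 140.0 to 164 CPM in control cold (0.11 ± 0.12, q = 0.674). The KO libraries of these 2 genes overlapped with the control libraries.

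At RT, edgeR called 0 of 41 members between KO and control, as it called 0% of all 11073 genes. DESeq2 and limma-voom also called 0 members. An unadjusted p under 0.05 in edgeR was found for 346 of all 11073 genes and for 2 of the 41 members. These were Rnf152, described above, and Tfeb, which was at 14.7, 10.3 and 10.5 CPM in KO RT, against 6.44 and 7.23 CPM in control RT (0.80 ± 0.37, q = 1). Next came Ctsa, cathepsin A (-0.46 ± 0.22), Gaa, acid alpha-glucosidase (0.50 ± 0.26), and Gabarapl2 (-0.32 ± 0.23), each with q = 1. Of the 5 genes lower in KO cold, the 4 other than Rnf152 had log2 fold changes between -0.12 and 0.03 at RT. With 3 against 2 libraries this comparison had the fewest samples.

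**Figure D2:**
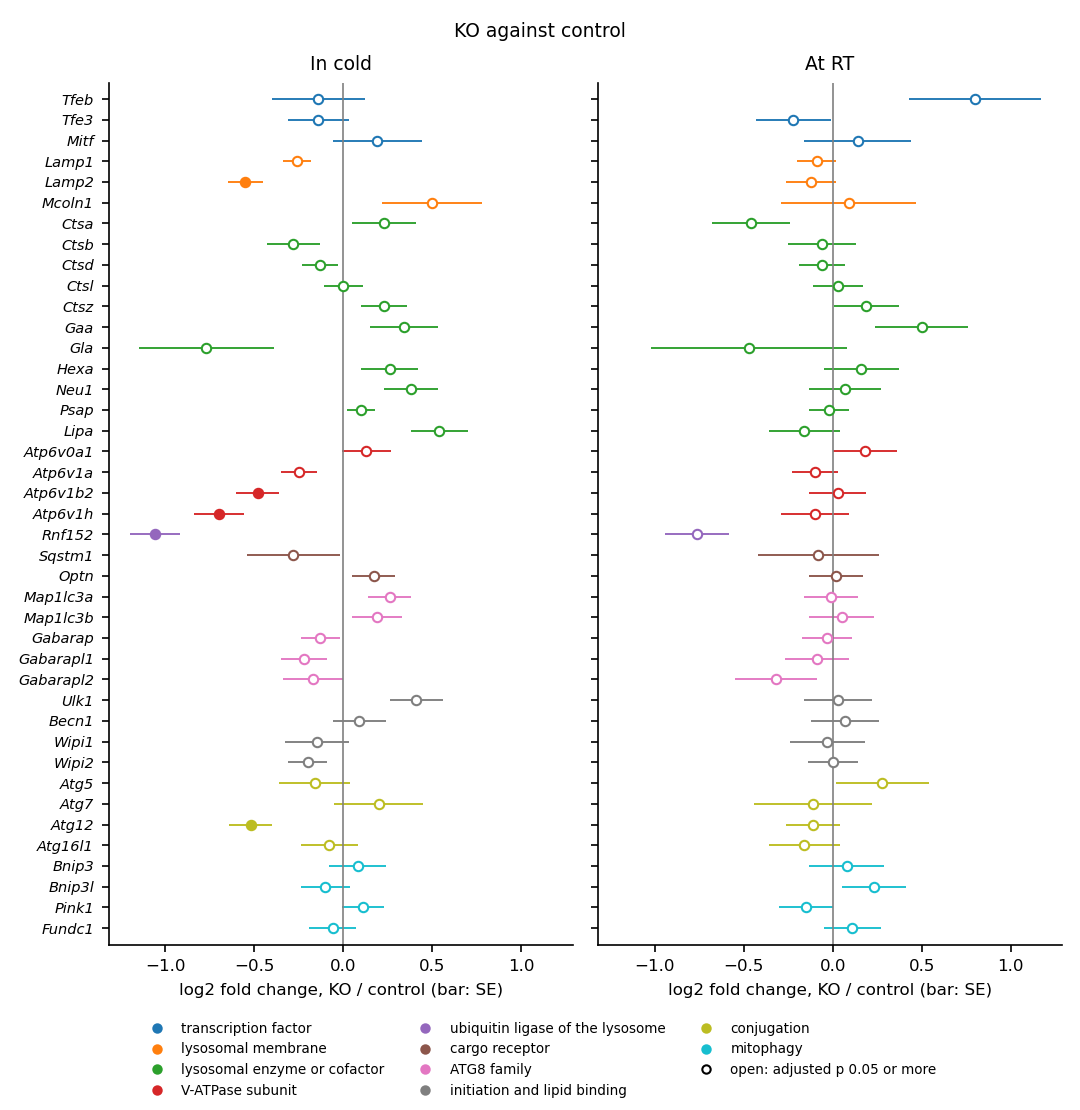
Log2 fold change of KO over control for the 41 tested members, in cold (left) and at RT (right), ordered by role; bars are the standard error and filled points have an adjusted p under 0.05. The 5 filled points, Rnf152, Lamp2, Atp6v1h, Atg12 and Atp6v1b2, are all left of 0 in cold, and no point is filled at RT.

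The cold response was measured within each genotype, against the RT libraries of that genotype. In KO, 10 of 41 members rose and 1 fell, where 9.43% of all genes rose and 9.45% fell. In control, 11 members rose and 2 fell, where 12.7% of all genes rose and 12.6% fell. The median log2 fold change of the members was 0.275 in KO and 0.328 in control, and that of all genes -0.011 and -0.017. A total of 8 members rose in both genotypes, which is 80.0% of the KO list and 72.7% of the control list: Lamp1, Lamp2, Ctsl, Ctsz, Atp6v1a, Atp6v1h, Sqstm1 and Gabarapl1. Over all genes, 719 rose in both, which is 68.9% of those that rose in KO and 51.3% of those that rose in control. In the same contrasts 5 of 7 fibroblast markers fell in KO, with a median of -1.241, and edgeR, DESeq2 and limma-voom called 0 of 7 in control, with a median of -0.214. Their summed level was 554.5 to 647 CPM in KO cold, against 673 to 1353 CPM in KO RT. The part of these cells in the members' cold response was not tested. Control RT had 2 libraries, so a fit without either of them rests on the other alone. Without control RT 1, the library with the highest muscle marker sum, fewer members were called in control. Lamp1, Lamp2, Ctsz, Atp6v1a, Atp6v1h and Gabarapl1 kept their calls in control whichever library was left out.

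Ctsz (ENSMUSG00000016256.11, chromosome 2), a carboxypeptidase of the cathepsin family, was at 279.7, 380.3, 395 and 365 CPM in KO cold, against 142, 148 and 120.2 CPM in KO RT (1.38 ± 0.15, q = 1.91e-05). In control it was at 297, 286, 365 and 263 CPM in cold, against 132 and 108 CPM at RT (1.34 ± 0.18, q = 7.34e-05). Every cold library was above every RT library, with no separation of the genotypes in cold. Gabarapl1 (ENSMUSG00000030161.9, chromosome 6), an ATG8 protein known as a FOXO target, was at 438, 442, 403 and 423 CPM in KO cold, against 178, 169 and 162 CPM in KO RT (1.33 ± 0.15, q = 2.76e-05). In control it was at 604, 416, 381 and 590.1 CPM in cold, against 169 and 193 CPM at RT (1.46 ± 0.18, q = 4.22e-05). It was the one ATG8 gene that edgeR called in either cold response. Gabarap was at 0.37 ± 0.13 in control (q = 0.0511), where DESeq2 and limma-voom called it. Sqstm1 (ENSMUSG00000015837.16, chromosome 11) was at 152, 152 and 171 CPM in KO RT, against 147 and 188 CPM in control RT, below every cold library. It rose in KO (0.96 ± 0.29, q = 0.0282) and control (1.16 ± 0.33, q = 0.0182). The KO call was lost without any KO library but KO cold 4 (q up to 0.0957). The control call was lost without control RT 1, which leaves only control RT 2 in that group.

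Atp6v1a (ENSMUSG00000052459.14, chromosome 16) was at 418, 374, 395 and 441 CPM in KO cold, against 257, 241 and 274 CPM in KO RT (0.66 ± 0.11, q = 0.000660). In control it was at 533, 412, 491 and 496 CPM in cold, against 267 and 285 CPM at RT (0.81 ± 0.13, q = 0.000353). Cold and RT libraries did not overlap in either genotype. Atp6v1h rose by 0.72 ± 0.16 in KO (q = 0.00479) and by 1.32 ± 0.19 in control (q = 0.000141). Lamp2 rose by 0.65 ± 0.12 in KO (q = 0.00108) and by 1.07 ± 0.14 in control (q = 5.67e-05). Lamp1 rose by 0.36 ± 0.09 in KO (q = 0.0115, but 0.0657 without KO RT 2) and by 0.54 ± 0.11 in control (q = 0.00173). Ctsl rose by 0.52 ± 0.12 in KO (q = 0.00525) and by 0.55 ± 0.13 in control (q = 0.00706). The control call was lost without control RT 1, which leaves only control RT 2 in that group.

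Other members were called in 1 genotype. In KO, Neu1 rose (0.77 ± 0.16, q = 0.00345), with 68.5, 74.1, 75.4 and 73.9 CPM in cold and 39.0, 44.8 and 45.1 CPM at RT, and in control it was at 0.45 ± 0.19 (q = 0.0913). Optn rose in KO (0.38 ± 0.13, q = 0.0472), a call lost without KO cold 1, 2 or 3 or any KO RT library (q up to 0.133) and with DESeq2, and it was at 0.23 ± 0.15 in control (q = 0.270). Ctsb was at -0.48 ± 0.16 in KO (q = 0.0505). In control, Atp6v1b2 rose (0.59 ± 0.16, q = 0.0118), as did Wipi2, which binds the phosphoinositide of the forming autophagosome (0.47 ± 0.13, q = 0.0169), and Atg12 (0.45 ± 0.14, q = 0.0328). Lipa fell in control (-0.68 ± 0.19, q = 0.0167). Without control RT 1, which leaves only control RT 2 in that group, these 4 calls were lost, and that of Atg12 also without control cold 2 or 3. In KO the same 4 genes were at 0.08 ± 0.14, 0.28 ± 0.12, 0.03 ± 0.13 and 0.02 ± 0.17, none called. Tfeb was at 0.04 ± 0.28 in KO (q = 0.948) and 0.97 ± 0.35 in control (q = 0.0541). Nbr1, the autophagy receptor identified by its identifier alone, measured 169, 159, 180.0 and 160.3 CPM in KO cold, against 109, 113 and 120.2 CPM in KO RT. In control its cold libraries held 192, 171, 164 and 197 CPM, against 101 and 116 CPM at RT. It rose in cold in KO (0.55 ± 0.11, q = 0.00302) and control (0.74 ± 0.13, q = 0.000848), and KO and control cold libraries overlapped (-0.12 ± 0.10, q = 0.583).

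**Figure D3:**
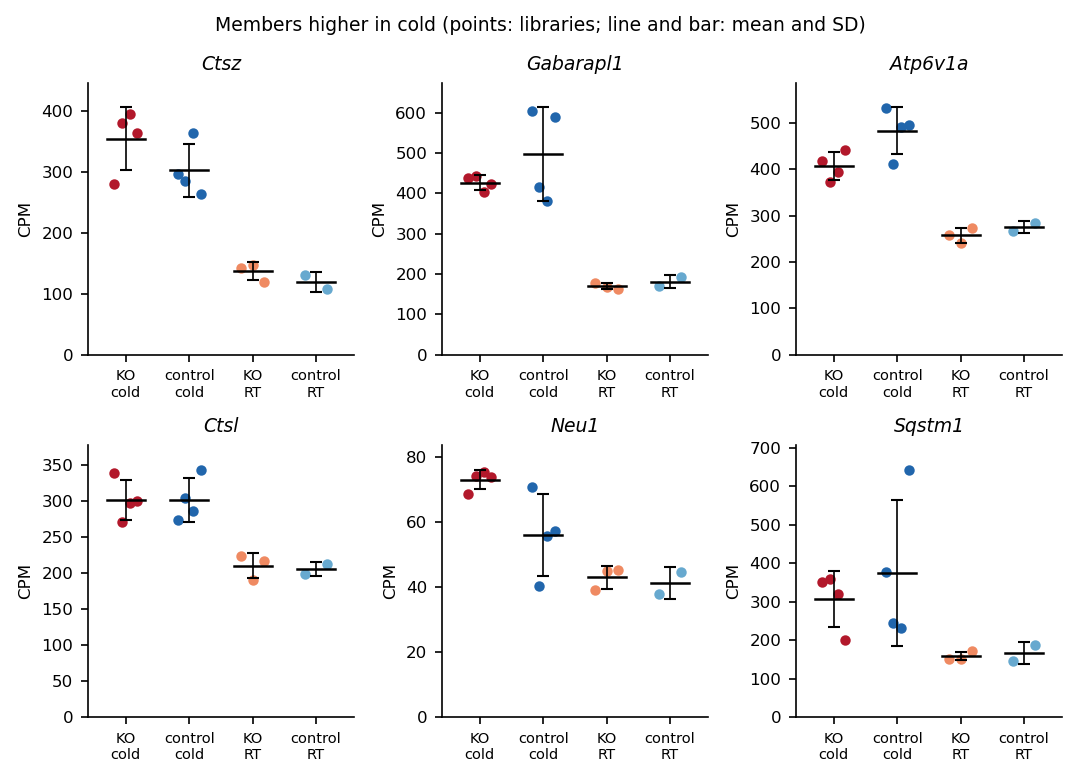
CPM (linear axis from 0) of 6 members called higher in cold in at least 1 genotype, in the 4 groups; each point is 1 library, lines are means and bars the SD (n = 4, 4, 3 and 2 from left to right). In each panel both cold groups have a higher mean than both RT groups, and Sqstm1 spreads from 201 to 642 CPM in cold.

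The difference between the cold responses, KO minus control, was called by edgeR for 0 of 41 members, against 0.0181% of all genes. DESeq2 and limma-voom also called 0. An unadjusted p under 0.05 in edgeR was found for 913 of all 11073 genes and for 6 of the 41 members. These were Lipa (0.70 ± 0.26, q = 0.482), Ctsa (0.69 ± 0.28, q = 0.535), Atp6v1h (-0.60 ± 0.24, q = 0.520), Atp6v1b2 (-0.51 ± 0.20, q = 0.526), Lamp2 (-0.43 ± 0.17, q = 0.526) and Atg12 (-0.42 ± 0.19, q = 0.596). A call in 1 genotype and not in the other is therefore not shown to differ between genotypes. Of the 5 genes lower in KO cold, 4 had risen in cold in control. Both comparisons share the control cold libraries, so high values there favour both calls in any gene. This count was not set against the share over all genes.

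**Figure D4:**
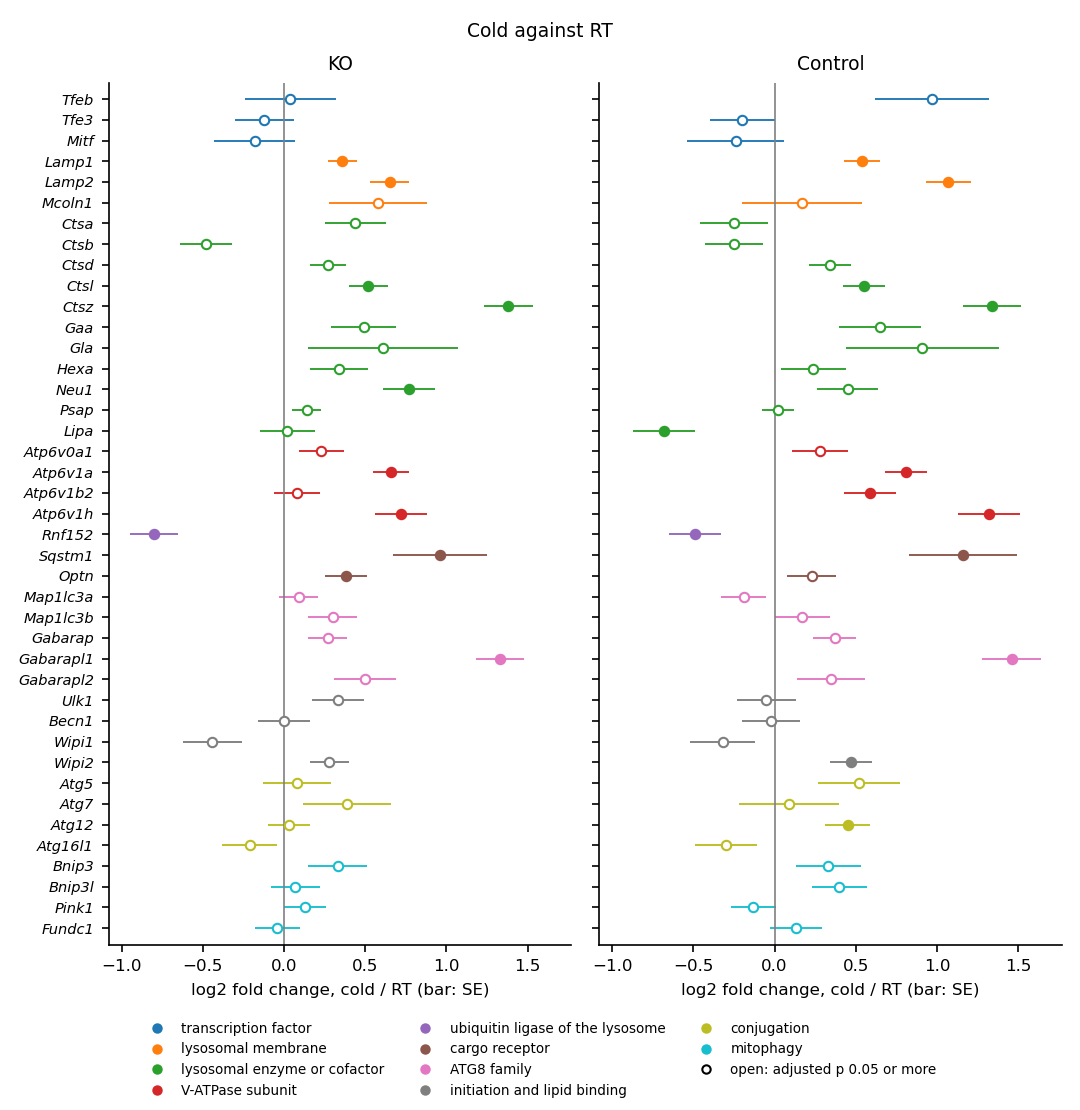
Log2 fold change of cold over RT for the 41 tested members in KO (left) and control (right), ordered by role; bars are the standard error and filled points have an adjusted p under 0.05. Ctsz and Gabarapl1 lie furthest to the right among filled points in KO and in control, and Rnf152 lies left of 0 in both.

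Promoter sequence was examined because several members rose together in cold and the CLEAR element of TFEB and its relatives is built on the letters CACGTG, which read the same on both strands. RefSeq promoter windows on GRCm38.p6, another build than that of the counts, were matched by symbol for 36 of the 44 members, and the 250 bases before each gene start were searched. CACGTG was found for 11 of the 36 members, 30.6%, and for 6.86% of all 27025 genes with a window. The longer palindrome TCACGTGA, which contains it, was found for 5 of the 36, 13.9%, and for 0.907% of all genes. TFEB and its relatives are known to drive many genes of these processes, so the choice of the list itself favours higher shares. The comparison is therefore a description and no test. The 11 were Atg5, Atg7, Atp6v1a, Bnip3, Ctsa, Ctsd, Ctsl, Gaa, Gla, Lamp1 and Mcoln1. Of the 13 members that rose in cold in either genotype, 10 had a window and 3 of these held CACGTG, namely Lamp1, Ctsl and Atp6v1a. Nbr1, kept apart from the counts, is not among the 13. Of the other 24 tested members with a window, 8 held it, and edgeR did not call these 8 higher in cold. Of these, Ctsd was at 0.27 ± 0.11 in cold against RT in KO (q = 0.0977) and at 0.34 ± 0.13 in control (q = 0.0554), where DESeq2 and limma-voom called it. Mcoln1 was at 0.58 ± 0.30 in KO (q = 0.198) and 0.17 ± 0.37 in control (q = 0.770). Shown are the stretches around the motif in those 3 risen genes and in Mcoln1 and Ctsd, which edgeR did not call, and then the last 78 bases before the start of Lamp2 and Rnf152, the 2 genes lower in KO cold that had a window, neither of which held the motif. All read 5′ to 3′ on the gene's strand, and capitals mark CACGTG, or TCACGTGA where the flanking letters complete it.
Lamp1, chr8:13159064-13159141, plus strand: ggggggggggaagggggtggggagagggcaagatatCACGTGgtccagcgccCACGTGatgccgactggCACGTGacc
Ctsl, chr13:64370715-64370770, minus strand: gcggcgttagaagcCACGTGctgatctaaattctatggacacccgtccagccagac
Atp6v1a, chr16:44139348-44139427, minus strand: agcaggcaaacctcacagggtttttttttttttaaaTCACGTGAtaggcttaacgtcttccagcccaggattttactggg
Mcoln1, chr8:3500437-3500516, plus strand: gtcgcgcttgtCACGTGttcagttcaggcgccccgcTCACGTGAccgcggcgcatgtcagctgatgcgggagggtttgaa
Ctsd, chr7:142387883-142387962, minus strand: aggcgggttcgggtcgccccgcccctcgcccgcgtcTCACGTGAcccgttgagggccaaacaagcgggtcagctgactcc
Lamp2, chrX:38456461-38456538, minus strand: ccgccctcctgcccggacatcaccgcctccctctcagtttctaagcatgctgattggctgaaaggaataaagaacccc
Rnf152, chr1:105356711-105356788, minus strand: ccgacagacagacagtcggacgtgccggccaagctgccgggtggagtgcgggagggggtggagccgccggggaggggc
The Lamp1 window held 4 copies of CACGTG, of which 3 are in the stretch, those of Mcoln1 and Ctsd held 2 each, and those of Ctsl and Atp6v1a held 1. Genes with a match were thus found among those that edgeR called higher in cold and among those that it did not, and a match is a description of the letters and not a measured site.

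Further genes of the same processes were read from lists chosen by function, with earlier results of these data known. Their counts are therefore a description and no test, and stand beside the shares over all genes. These shares were 9.43% higher and 9.45% lower in the cold response of KO, and 12.7% and 12.6% in that of control. In KO against control in cold they were 2.44% and 3.49%. Among the other V-ATPase subunits and assembly factors, 8 of 16 tested genes rose in cold in KO and 8 of 16 in control, with 0 falls in either, against 9.43% of all genes in KO and 12.7% in control that rose, and the median log2 fold change was 0.373 in KO and 0.467 in control. Examples are Atp6v1d, of the central stalk (0.80 ± 0.15 in KO, q = 0.00147, and 0.97 ± 0.17 in control, q = 0.000852), Atp6v1e1, of a peripheral stalk (0.63 ± 0.12, q = 0.00130, and 0.86 ± 0.14, q = 0.000313), and Atp6v0b, of the membrane ring (0.72 ± 0.10, q = 0.000221, and 0.59 ± 0.12, q = 0.00226). Between KO and control in cold, 0 of these 16 were called by edgeR, DESeq2 or limma-voom, 1 had an unadjusted p under 0.05, and 13 had a negative value, with Vma21, an assembly factor, at the smallest p value (-0.38 ± 0.13, q = 0.0880). Over all 11073 genes, 2224 had an unadjusted p under 0.05 there in edgeR, and 5608 a negative value. The fall in KO cold was thus called for 2 V1 subunits of the 20 tested V-ATPase genes.

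**Figure D5:**
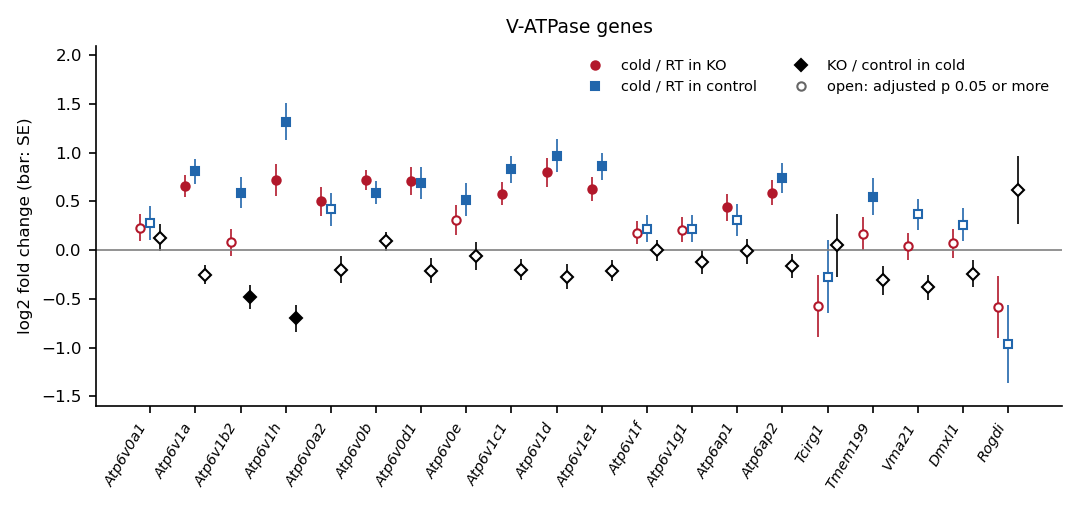
Log2 fold change of the 20 tested V-ATPase genes for cold over RT in KO, cold over RT in control and KO over control in cold; bars are the standard error and filled points have an adjusted p under 0.05. Most cold effects are above 0 in both genotypes, while Atp6v1b2 and Atp6v1h are the filled points of the KO effect.

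Genes that control mTORC1 and TFEB were examined beside Rnf152. In KO cold, edgeR called 3 of 34 lower and 0 higher, where 3.49% of all genes were called lower and 2.44% higher. The 3 were Rragc, a Rag GTPase that recruits mTORC1 to the lysosome (-0.56 ± 0.11, q = 0.00575), Prkaa1, the catalytic alpha-1 subunit of AMPK (-0.61 ± 0.13, q = 0.0122), and Deptor, an inhibitor of mTOR (-0.75 ± 0.20, q = 0.0328, but up to 0.109 without KO cold 2, 3 or 4 or control cold 2 or 4). The Deptor call was also lost with the replicate block and when only the 2 cold groups were fitted. Deptor was at 475.5, 317, 318 and 278 CPM in KO cold, against 474.6, 785, 376 and 704.5 CPM in control cold, with overlap. At RT it was already lower in KO, at 362, 402 and 404 CPM, against 612 and 616.5 CPM in control. Rheb, the GTPase that activates mTORC1, which had been listed with mitophagy factors, fell as well (-0.58 ± 0.12, q = 0.00992). In cold against RT, Rragc rose in KO (0.59 ± 0.12, q = 0.00293) and in control (log2 1.0 ± 0.14, q = 0.000117). Ddit4, an inhibitor of mTORC1 signalling, was at 262.5, 389, 297 and 541 CPM in KO cold, against 200.4, 141, 71.2 and 251 CPM in control cold. These libraries did not overlap, and the log2 fold change of 1.17 ± 0.36 did not pass with edgeR (q = 0.0696) or DESeq2 (q = 0.158) but did with limma-voom (q = 0.0454). DESeq2 also called Flcn, a regulator of Rag GTPases, at -0.52 ± 0.16 in edgeR (q = 0.0586). In cold against RT, Ddit4 rose by 3.03 ± 0.45 in KO (q = 0.000262) and by 2.30 ± 0.54 in control (q = 0.00542). The control call was lost without control RT 1, which leaves only control RT 2 in that group. In this list 8 of 34 genes rose and 3 fell in cold in KO, where 9.43% of all genes rose and 9.45% fell, and 10 rose and 2 fell in control, where 12.7% rose and 12.6% fell.

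Of 33 further hydrolases and cofactors, 2 rose and 0 fell in KO cold, where 2.44% of all genes rose and 3.49% fell. The 2 were Pla2g7, a secreted phospholipase kept in the list although it is not a lysosomal enzyme (0.67 ± 0.14, q = 0.00831), and Sgsh, which degrades heparan sulfate (1.40 ± 0.36, q = 0.0308). The call of Sgsh was lost in 7 of 13 leave-outs (q up to 0.106) and with DESeq2 and limma-voom. In the cold response 3 of the 33 rose and 7 fell in KO, where 9.43% of all genes rose and 9.45% fell, and 3 rose and 5 fell in control, where 12.7% rose and 12.6% fell. Smpd1, acid sphingomyelinase, rose in KO (0.78 ± 0.12, q = 0.000373) and in control (0.50 ± 0.14, q = 0.0161). Pla2g15, a lysosomal phospholipase, fell in KO (-1.40 ± 0.30, q = 0.00410) and in control (-1.45 ± 0.36, q = 0.00749). The control call was lost without control RT 1, which leaves only control RT 2 in that group. Of 21 further membrane and sorting proteins, 2 rose and 1 fell in KO cold, where 2.44% of all genes rose and 3.49% fell. Npc1, which carries cholesterol out of the lysosome, had 63.6, 83.5, 66.9 and 103.3 CPM in KO cold, against 39.2, 28.4, 29.7 and 38.8 CPM in control cold (1.22 ± 0.18, q = 0.000848), without overlap. Cln3 rose (0.96 ± 0.25, q = 0.0300) and M6pr, the receptor that sorts hydrolases to lysosomes, fell (-0.44 ± 0.12, q = 0.0314), with q up to 0.0945 and 0.0966 across leave-outs. Gnptab, which makes the mannose 6-phosphate tag of hydrolases, fell in cold in KO (-1.55 ± 0.21, q = 0.000123) and control (-1.53 ± 0.23, q = 0.000205). Scarb2, a lysosomal membrane protein, rose in KO (0.77 ± 0.12, q = 0.000482) and control (1.02 ± 0.15, q = 0.000151).

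Of 38 further genes of the autophagosome machinery, 2 fell and 0 rose in KO cold, where 3.49% of all genes fell and 2.44% rose. The 2 genes encode parts of the ULK1 kinase complex. Rb1cc1, its scaffold FIP200, was at 259.5, 269.7, 257 and 256 CPM in KO cold, against 360.0, 386, 317 and 412 CPM in control cold (-0.50 ± 0.10, q = 0.00831), without overlap. Atg13 fell too (-0.75 ± 0.19, q = 0.0242, but up to 0.0753 without KO cold 1, 3 or 4 or control cold 4). Against RT, Rb1cc1 rose in KO (0.73 ± 0.12, q = 0.000390) and control (0.95 ± 0.13, q = 0.000111), as did Atg101, the third regulatory protein of that complex (1.63 ± 0.24, q = 0.000280, and 1.56 ± 0.28, q = 0.00102). In all, 6 of the 38 rose and 0 fell in cold in KO, where 9.43% of all genes rose and 9.45% fell. In control 9 rose and 1 fell, where 12.7% of all genes rose and 12.6% fell. Of 20 further mitophagy factors and cargo receptors, 1 fell in KO cold, Rheb, where 3.49% of all genes fell. In cold against RT, 4 rose in KO and 8 in control, with 0 falls, where 9.43% and 12.7% of all genes rose. Marchf5, a ubiquitin ligase of the outer mitochondrial membrane, rose by 0.52 ± 0.11 in KO (q = 0.00307) and by 0.81 ± 0.13 in control (q = 0.000278). Tax1bp1, a cargo receptor, rose by 0.46 ± 0.11 in KO (q = 0.00963) and by 0.68 ± 0.13 in control (q = 0.00156).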

How the data were processed

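The authors deposited unscaled whole-number counts, 1 row per Ensembl gene. Libraries were made with a QuantSeq 3′ kit, per the labels' protocols. Per the submitters' processing notes, which give no roles, tools included HTSeq 0.12.3, STAR 2.7.10b, UMI-tools 1.1.2 and Trim Galore 0.6.7, besides limma and edgeR, on GRCm39. Use of strand and collapse of molecular identifiers: not given in the sources used here. Overlapping or antisense genes therefore cannot be told apart.

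Of 55632 lines, 275 repeats were dropped. All 13 libraries were fitted together in R 4.3.3 with edgeR 4.0.16 (filterByExpr, minimum count 10, TMM scaling, 1 coefficient per group, common biological variation 16.1%). The 5 contrasts were tested two-sided with the quasi-likelihood test and Benjamini-Hochberg adjustment over 11073 genes, with a threshold of 0.05. The code was tested on simulated data. DESeq2 1.42.0 and limma 3.58.1 served as alternatives. Members and lists were chosen with earlier results of these data known. Members were named in full when called, among the 5 smallest p of a contrast, or TFEB-family factors. From each further list, some of the 4 called genes with the smallest p in a contrast were named, with their values in the other contrasts.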

Additional observations from a re-analysis of the deposited data

Results flagged for a closer look

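In cold groups of 4 libraries, 3 of 82 member values had a highest or lowest library set far apart from the other 3, where chance gives about 1 in 20. Map1lc3b was at 459 CPM in control cold 1, against 360.0 to 363 CPM in the other control cold libraries. Bnip3l was at 99.5 CPM in control cold 2, against 76.0 to 79.9 CPM in the others. Pink1 was at 152 CPM in KO cold 1, against 168 to 169 CPM in the others. None of the 3 genes was called in any contrast.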

How the results depend on the processing

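KO against control in cold called 5 members, and 5 to 7 under relative log expression scaling, no filter on low counts, DESeq2, limma-voom, the replicate block or a fit of the 2 groups alone. Leaving out each library gave 3 to 6, with 3 without KO cold 1. At RT the count was 0, but 1 (Rnf152) with no filter, and 0 to 0 across leave-outs. Cold against RT called 11 members in KO, 9 to 12 under the alternatives and 8 to 12 across leave-outs. In control it called 13, 9 to 15 under the alternatives and 6 to 14 across leave-outs, with 6 without control RT 1. The difference between the cold responses called 0 throughout.

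Tfeb in KO cold was at -0.14 and lay between -0.33 and 0.07 across leave-outs, positive without KO cold 1 or control cold 1. The cause was not tested. Among the values of named members, 512 of the leave-out values kept their side of the threshold and their direction, 32 lost the call and 2 turned sign.

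Replicate numbers do not pair samples by the labels. Deviations of same-numbered libraries correlated at 0.138, -0.0824, 0.0529 and -0.163 in cold and 0.333 and -0.013 at RT. Those of differently numbered libraries correlated at -0.131 to 0.162 in cold. With 2 to 4 libraries per group, these values cannot exclude that same-numbered samples share an origin. With the number as a replicate block, 6 members were called in KO against control in cold, 0 at RT, 9 in the cold response of KO, 13 in that of control and 0 in the difference. Groups of 2 to 4 libraries limit precision, most of all the control RT pair. Counts of 9 to 26 per library for Mcoln1 and 12 to 32 for Tfeb limit those genes.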
